A study of Mus musculus with 6 samples.

Results

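The flow-response genes described here were measured in bEnd.3, an endothelial line from mouse brain, after the cells were given mitochondria taken from MLO-Y4, an osteocyte-like mouse line. They are the Krüppel-like factors Klf2, Klf4, Klf6 and Klf10, the endothelial nitric oxide synthase gene Nos3, the thrombomodulin gene Thbd, and Mef2a, Map2k5 and Mapk7 of the signalling route to Klf2 and Klf4. They were chosen by gene name, and all 9 members were found among the 30077 genes of the table. All 9 also passed the filter on low values, which kept 11255 genes. RNA was sequenced from 3 libraries of cells that received mitochondria in 100 µl of medium and from 3 control libraries that received the same volume of medium alone, in both cases 24 h before collection. Both groups are labelled wild type, both come from the same cell line, and the labels name no flow applied to either. The labels do not say whether libraries of 1 group are separate cultures; p-values therefore reflect library-to-library spread, which may be purely technical.

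Laminar blood flow keeps endothelial cells quiescent largely through KLF2 and KLF4, zinc finger transcription factors that raise anticoagulant and vasodilator genes and restrain inflammatory ones. The signal reaches them through a kinase cascade in which MEKK2 or MEKK3 activates MEK5, encoded by Map2k5. MEK5 activates ERK5, encoded by Mapk7, and ERK5 activates MEF2 factors that bind the Klf2 and Klf4 promoters. Nos3 and Thbd are the best known genes that KLF2 and KLF4 raise. KLF6 and KLF10 belong to the same family and are early-response factors tied to injury and to transforming growth factor beta. Cerebral cavernous malformation (CCM) proteins and their membrane partner HEG1 hold the cascade in check.

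The upstream sequences of the 3 KLF genes whose results are set against each other below are printed here because MEF2 binding is the step that links the cascade to Klf2. RefSeq gave a promoter for 6 of the 9 genes (GRCm38.p6). Each stretch runs 5′ to 3′ on the gene's own strand and ends before the gene's start in both RefSeq and the deposited table. Capitals mark the MEF2 site and the GC-rich box GGGCGG on either strand (CCGCCC on the other), and in Klf4 a pair of these boxes overlap by a base.
Klf2 (chr8:72318812-72319032, + strand): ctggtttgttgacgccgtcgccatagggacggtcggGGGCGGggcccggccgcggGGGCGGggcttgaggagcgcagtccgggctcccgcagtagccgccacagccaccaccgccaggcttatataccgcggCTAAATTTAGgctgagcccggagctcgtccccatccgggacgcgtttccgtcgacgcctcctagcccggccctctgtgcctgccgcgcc
Klf4 (chr4:55532476-55532725, - strand): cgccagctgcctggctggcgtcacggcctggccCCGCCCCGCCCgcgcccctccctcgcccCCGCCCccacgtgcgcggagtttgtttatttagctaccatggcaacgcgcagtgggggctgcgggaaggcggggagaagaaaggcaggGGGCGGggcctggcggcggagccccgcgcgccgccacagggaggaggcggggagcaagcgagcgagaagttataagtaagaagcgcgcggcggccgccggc
Klf6 (chr13:5861239-5861481, + strand): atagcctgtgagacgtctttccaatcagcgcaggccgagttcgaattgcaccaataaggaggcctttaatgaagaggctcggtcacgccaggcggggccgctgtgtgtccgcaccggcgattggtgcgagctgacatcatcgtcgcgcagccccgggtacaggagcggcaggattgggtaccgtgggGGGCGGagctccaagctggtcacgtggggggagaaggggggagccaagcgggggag

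Klf2 alone of the 6 genes with a promoter held a match to the MEF2 consensus in the 250 bases before its start. The match, CTAAATTTAG, lies 118 to 109 bases before the RefSeq start and reads the same on both strands. A MEF2 match was present in 2.92% of 32851 mouse promoter windows of that length. The box GGGCGG, searched on both strands, was present in 32.7% of windows and stood at 2 places before Klf2, 4 before Klf4 and 1 before Klf6. The KLF core motif CACCC, also searched on both strands, was present in 52.0% of windows. It was found once before Klf2, 19 to 15 bases from the start and beyond the printed stretch, and not in the windows of Klf4 or Klf6. These are matches of letters and not measured binding sites.

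Libraries held 59651087 to 65576084 counts. The share of counts in the 18S ribosomal RNA locus CT010467 and in Lars2, a mitochondrial tRNA synthetase gene, was 1.74% to 3.56% in control and 4.38% to 7.94% in mitochondria libraries, so it moved with the treatment. Of the endothelial markers, 17 of 18 passed the filter, with Cdh5 (VE-cadherin) at 319.8 FPKM (fragments scaled to transcript length and library size) or more in every library, while Vwf did not pass. None of the 11 osteocyte and osteoblast markers with a row passed, and their summed level was 0.839 to 1.21 FPKM in control and 0.613 to 0.944 FPKM in mitochondria libraries. Of these, Bglap was at 0 in all 6 libraries, Sost had 0 to 4 counts and Mepe 0 to 4. Smooth muscle and pericyte markers summed to 3.05 to 5.76 FPKM in control and 1.48 to 9.11 FPKM in mitochondria libraries, with 1 of 8 tested. Leukocyte markers summed to 36.7 to 38.8 FPKM and 49.6 to 57.9 FPKM, nearly all of it Cd68, a lysosomal protein of macrophages, which rose by 0.55 on the log2 scale (SE 0.07, adjusted p = 0.00212 by edgeR). The defining leukocyte gene Ptprc had 0 to 10 counts and Adgre1 0 to 4. The part of these marker changes in the results below was not tested, and in bulk RNA fewer cells of a type cannot be told apart from less RNA per cell.

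Of the 9 genes, Klf2 rose and 8 did not pass the test. By edgeR's quasi-likelihood test at an adjusted p under 0.05, 2.09% of all 11255 tested genes changed, 0.986% upward and 1.10% downward. The groups did not overlap for 3 of the 9 genes, Klf2, Klf6 and Nos3, against 21.1% of all tested genes (10.1% apart upward and 11.0% downward). On the log2 scale 5 of the 9 lay above 0 and 4 below, with a median of 0.01 beside 0.0011 for all genes, and their median absolute change of 0.09 stood beside 0.08 for all genes.

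**Figure D1:**
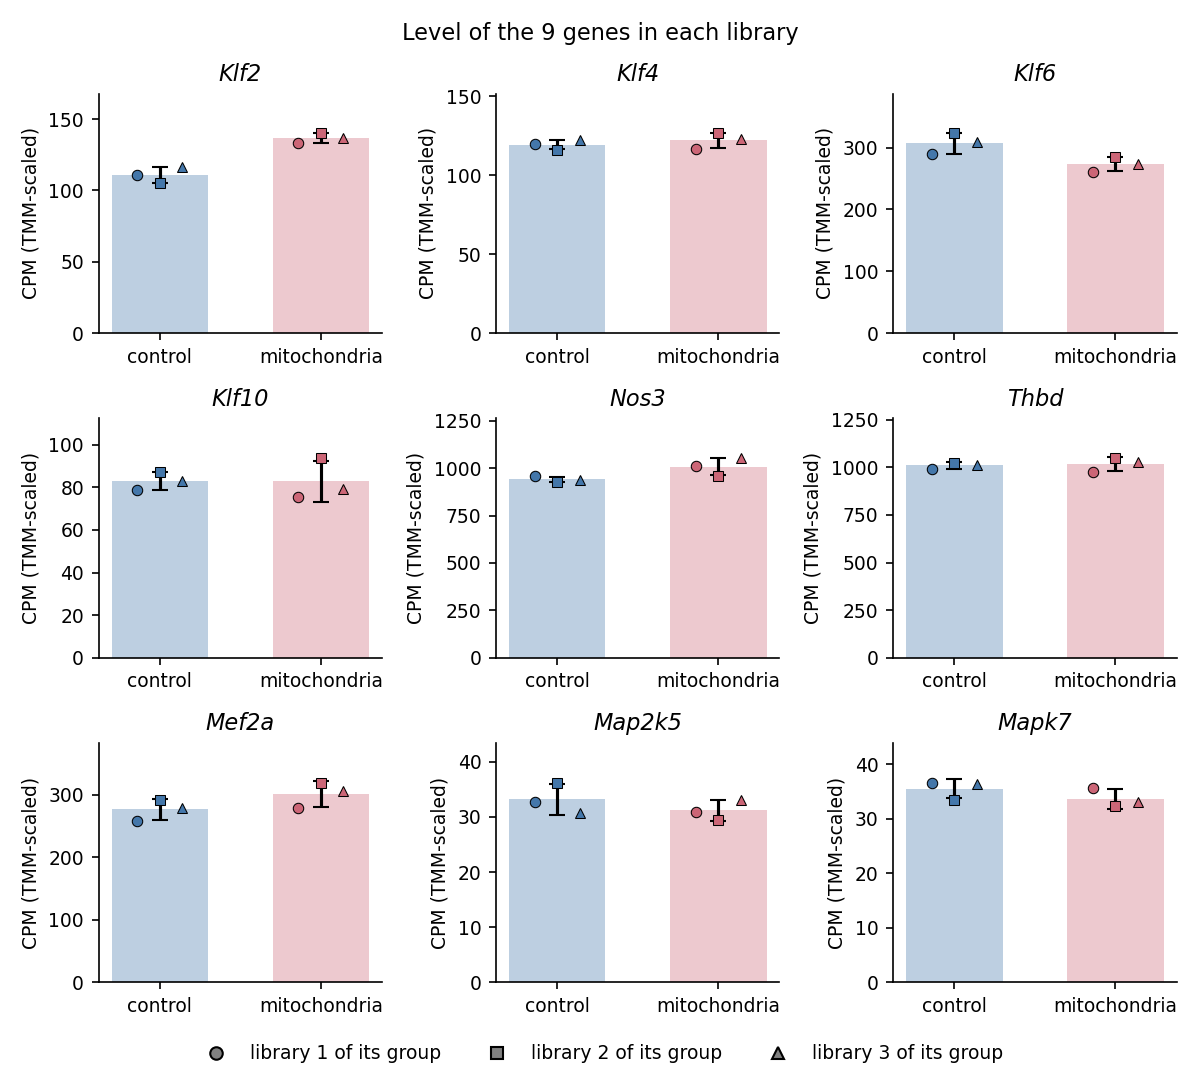
Counts scaled to library size (CPM, with TMM factors, on the vertical axis) of the 9 genes in each library: points are libraries (circle, square and triangle for libraries 1, 2 and 3 of a group), bars are group means and error bars are SD. All 3 Klf2 points with mitochondria (133 to 139.9 CPM) lie above all 3 controls (105 to 117 CPM), all 3 Klf6 points lie below theirs, and Klf4, Klf10 and Thbd overlap.

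Per length of transcript, the levels ran from Thbd down to Mapk7. In control cells Thbd stood at 243 ± 7.53 FPKM (SD, n = 3) and Nos3 at 204 ± 1.87 FPKM, each above 98% of tested genes. Klf6 followed at 62.7 ± 4.29 FPKM, Klf2 at 53.7 ± 2.18 FPKM and Klf4 at 35.1 ± 0.480 FPKM. Among the factors, Klf10 at 17.8 ± 1.17 FPKM was lowest and its range overlapped that of Mef2a at 16.9 ± 1.26 FPKM. The kinase genes closed the order, with Map2k5 at 9.18 ± 0.915 FPKM and Mapk7 at 7.22 ± 0.238 FPKM. Every other neighbouring pair in the control order had ranges that did not overlap. With mitochondria the order changed at 2 places: Klf2 at 63.5 ± 0.164 FPKM stood above Klf6 at 53.4 ± 1.04 FPKM, and Mef2a and Klf10 changed places within overlapping ranges.

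Klf2 (ENSMUSG00000055148, chromosome 8: 72319033 to 72321656 on the plus strand, 3 exons) was the gene that changed. Its level was 111, 105 and 117 CPM in controls 1, 2 and 3, and 133, 139.9 and 137 CPM in mitochondria 1, 2 and 3. Every mitochondria library lay above every control, and the mitochondria libraries lay closer together than the controls. The raw counts behind these levels were 7051 to 7549 in control and 8018 to 8414 with mitochondria. The mean went from 111 ± 5.81 to 137 ± 3.45 CPM (SD, n = 3), a rise of 23.3%. In edgeR the log2 fold change was 0.30 (SE 0.05, 95% interval 0.20 to 0.40, adjusted p = 0.00761), higher in 3 of 3 mitochondria libraries, and by p the gene stood in place 47 of 11255.

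The rise of Klf2 was called in all 6 fits that left out a library, at 0.26 to 0.34 log2 (adjusted p = 0.00932 to 0.0374 by edgeR). It was also called by DESeq2 (0.30, SE 0.05, adjusted p = 2.1e-07). In limma on deposited FPKM it was 0.24 (SE 0.04, adjusted p = 0.0614), and on TPM, which move the median of all genes to −0.15, it was 0.14 (SE 0.06, adjusted p = 0.113), or 0.29 above that median. TMM scaling already puts the median of all genes near 0 (0.0011). A value taken against the median therefore repeats the main scaling and is no separate support, here and for the genes below. With the share of CT010467 and Lars2 as a covariate the log2 fold change of Klf2 was 0.18 (SE 0.08, adjusted p = 0.773 by edgeR). That share did not overlap between the groups, so the fit can barely separate it from the treatment, and the fit called 3 genes in all. With the rows of CT010467 and Lars2 removed before scaling, Klf2 was at 0.30 (SE 0.05, adjusted p = 0.00654 by edgeR).

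Klf4 (ENSMUSG00000003032, chromosome 4: 55527143 to 55532466 on the minus strand), the factor that shares most targets with Klf2, did not pass the test. It stood at 120.2, 116 and 122 CPM in control and at 117, 127 and 123 CPM in mitochondria libraries. The groups overlapped through mitochondria 1, while mitochondria 2 and 3 lay above every control. The log2 fold change was 0.03 (SE 0.04, adjusted p = 0.795 by edgeR), with a 95% interval of −0.07 to 0.13 that holds 0 and ends below the lower bound for Klf2. Its sign turned with library totals, FPKM or TPM scaling, which move the median of all genes below 0, and against that median it was 0.02 to 0.03 in each.

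A ratio of 2 genes within a library does not depend on how the library is scaled. The ratio of Klf2 to Klf4 in FPKM was 1.52, 1.49 and 1.57 in controls 1, 2 and 3 and 1.88, 1.83 and 1.84 in mitochondria 1, 2 and 3. Its mean went from 1.53 ± 0.0412 to 1.85 ± 0.0307 (SD, n = 3), with no overlap. Klf6 over Klf2 was 1.10, 1.29 and 1.11 in control and 0.826, 0.854 and 0.843 with mitochondria. Per length of transcript, Klf6 was thus the higher of the pair in each control library and the lower in each mitochondria library. In CPM, which are not scaled to length, Klf6 lay above Klf2 in all 6 libraries (274 against 137 CPM in mitochondria 3). Thbd over Nos3 overlapped between the groups, at 1.15 to 1.23 and 1.07 to 1.21. These ratios were picked with the values known and are given without a test.

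**Figure D2:**
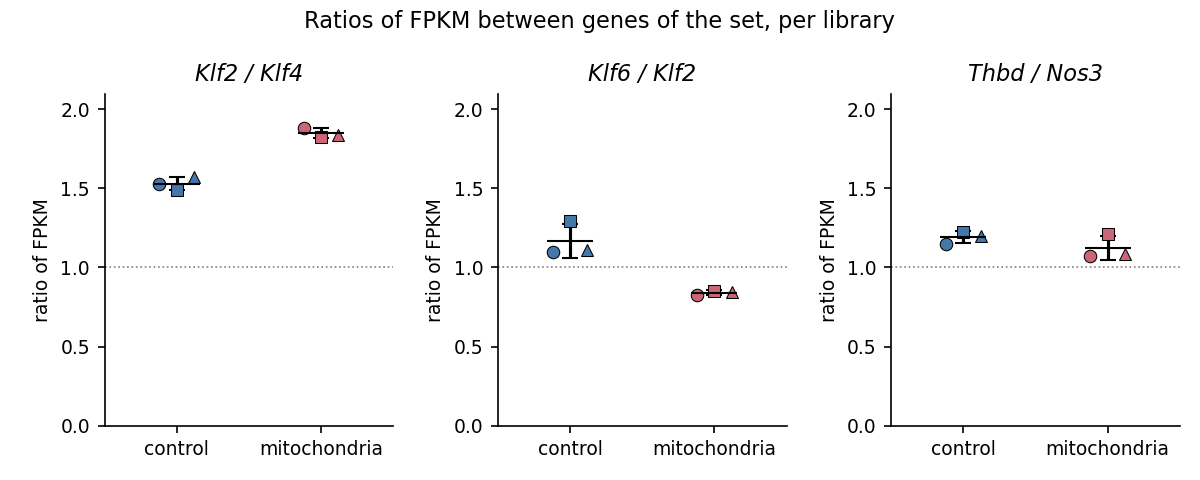
Ratios of deposited FPKM between pairs of the 9 genes in each library: points are libraries, horizontal marks are means and bars are SD over 3 libraries. Klf2 over Klf4 is 1.49 to 1.57 in control and 1.83 to 1.88 with mitochondria, Klf6 over Klf2 crosses 1, and Thbd over Nos3 overlaps.

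Klf6 (ENSMUSG00000000078, chromosome 13: 5861482 to 5870394 on the plus strand) stood lower with mitochondria but did not pass the main test. Its level was 289.8, 323 and 308 CPM in controls 1, 2 and 3 and 261, 284 and 274 CPM in mitochondria 1, 2 and 3. All mitochondria libraries lay below all controls, with a gap between mitochondria 2 and control 1 that was small beside the spread of the controls. The mean was 307 ± 16.6 CPM in control and 273 ± 11.5 CPM with mitochondria (SD, n = 3; log2 change −0.17, SE 0.05, 95% interval −0.27 to −0.07, adjusted p = 0.0909 by edgeR). DESeq2 called it (−0.17, adjusted p = 0.00621), as did edgeR on library totals alone (−0.22, adjusted p = 0.0313) and limma on TPM (−0.33, adjusted p = 0.0483). So did edgeR with a term for the library number, the replicate block (−0.17, SE 0.03, adjusted p = 0.0112). Library totals and TPM place the median of all genes at −0.05 and −0.15, and relative to it Klf6 was at −0.17 in both, as in the main scaling. This match follows from the main scaling, which already holds the median near 0, and is no further result. No fit without a library called Klf6 (−0.21 to −0.13, adjusted p = 0.0592 to 0.289 by edgeR). Its sign was negative in every setting run.

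**Figure D3:**
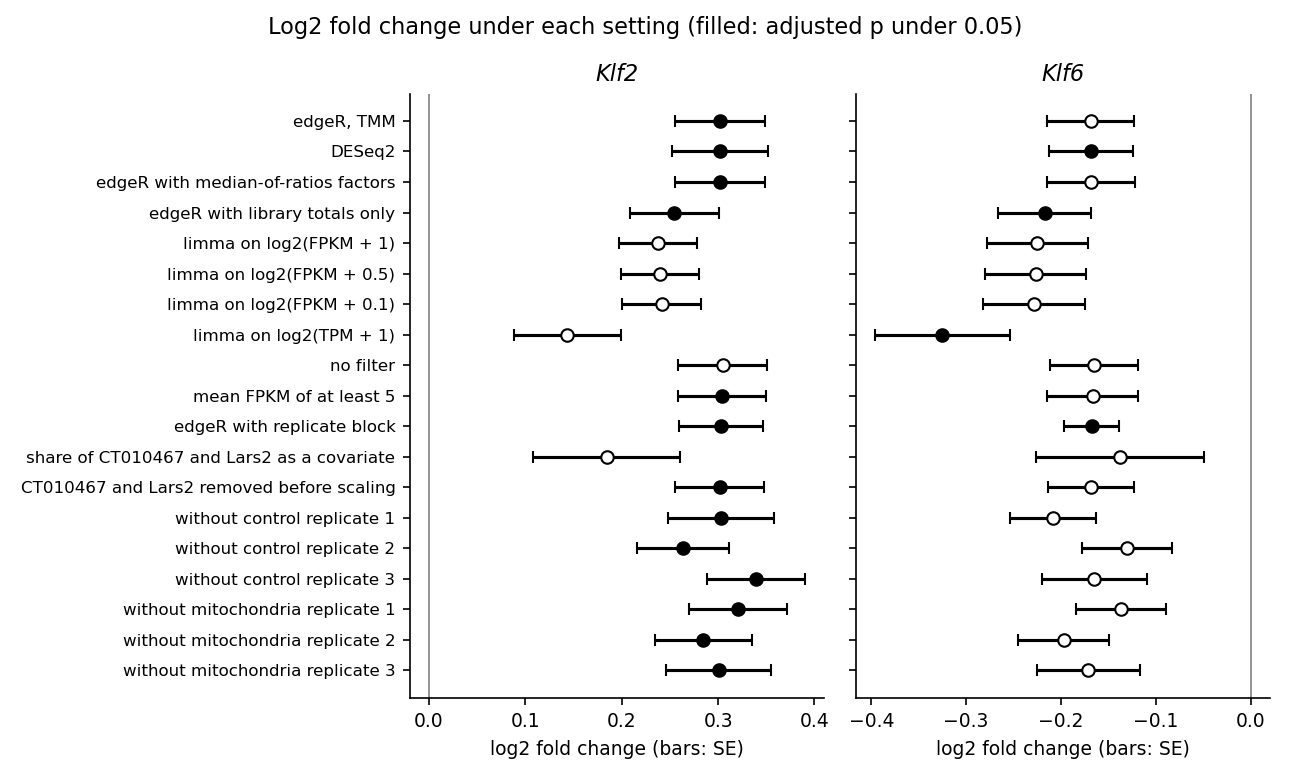
Log2 fold change of Klf2 and Klf6, mitochondria over control, under the edgeR test with TMM scaling and 18 other settings; bars are SE and filled points have an adjusted p under 0.05. Klf2 stays above 0 (0.14 to 0.34) and Klf6 below 0 (−0.33 to −0.13) in each, while the calls differ between tests.

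Klf10 (ENSMUSG00000037465, chromosome 15: 38291463 to 38300706 on the minus strand), first described as a gene induced early by transforming growth factor beta, did not pass the test either. It stood at 78.9, 87.2 and 82.8 CPM in control and at 75.4, 93.7 and 79.3 CPM with mitochondria. Mitochondria 2 was the highest library and mitochondria 1 the lowest, so the treated group enclosed the controls. The log2 fold change was −0.0030 (SE 0.07, 95% interval −0.16 to 0.16, adjusted p = 0.992 by edgeR), and its sign varied with the library left out.

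None of the 3 genes of the cascade above Klf2 passed the main test. Map2k5 (chromosome 9: 63163768 to 63377902 on the minus strand), which encodes MEK5, stood at 32.6, 36.2 and 30.7 CPM in control and 30.9, 29.5 and 33.2 CPM with mitochondria (log2 change −0.09, SE 0.08, 95% interval −0.27 to 0.09, adjusted p = 0.661 by edgeR; 0.06 with the share of CT010467 and Lars2 as a covariate). Mapk7 (chromosome 11: 61488812 to 61494296 on the minus strand), which encodes ERK5, stood at 36.6, 33.5 and 36.4 CPM and at 35.6, 32.2 and 33.0 CPM (−0.08, SE 0.07, 95% interval −0.24 to 0.08, adjusted p = 0.664 by edgeR). For both kinase genes the groups overlapped. Kinase activity was not measured, since these are messenger RNA levels.

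Mef2a (ENSMUSG00000030557, chromosome 7: 67231163 to 67372858 on the minus strand), one of the MEF2 factors, stood at 258, 292 and 278 CPM in control and at 278, 319 and 306 CPM with mitochondria. The lowest mitochondria library fell within the control range. The mean was 276 ± 16.8 and 301 ± 21.0 CPM (SD, n = 3; log2 change 0.12, SE 0.06, 95% interval 0.0026 to 0.24, adjusted p = 0.301 by edgeR). EdgeR with the replicate block called it (0.12, SE 0.03, adjusted p = 0.0464). On TPM it was −0.04, which is 0.11 above the median of all genes there. The gene Lysmd4 lies within the same locus on the opposite strand and had 696 to 924 counts against 16786 to 19611 for Mef2a.

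In the wider cascade no gene passed the main test. Of 14 listed genes of the MEKK, MEK5, ERK5 and MEF2 route, 12 were tested and none was called. Over all tested genes 2.09% were called, so no call among 12 says little about the cascade. Of the 12, 4 lay above 0 and the median log2 fold change was −0.02 beside 0.0011 for all genes. Mef2c, another MEF2 factor of endothelium, named here after its value was seen, had the largest change of the list at 0.22 (SE 0.09, adjusted p = 0.274 by edgeR; 31.7 ± 1.12 and 37.0 ± 5.17 CPM, with no overlap between the groups). The upstream kinase Map3k3, which encodes MEKK3, was at −0.02 (SE 0.04) and its relative Map3k2 at 0.05 (SE 0.07).

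Among the proteins that restrain the cascade, Heg1, the membrane partner of the CCM complex, rose. Its level went from 185 ± 0.471 to 226 ± 4.17 CPM (SD, n = 3; log2 change 0.29, SE 0.03, adjusted p = 0.00153 by edgeR), and it was called in all 6 fits without a library. It was not called by limma on FPKM or TPM. Nor was it called by edgeR with the share of CT010467 and Lars2 as a covariate, a fit that called 3 genes in all. Its fitted change ran from 0.13 to 0.30 over all settings. The 3 CCM genes did not pass and lay below 0: Krit1 at −0.16 (SE 0.07, adjusted p = 0.271 by edgeR), Ccm2 at −0.13 (SE 0.06) and Pdcd10 at −0.11 (SE 0.08).

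**Figure D4:**
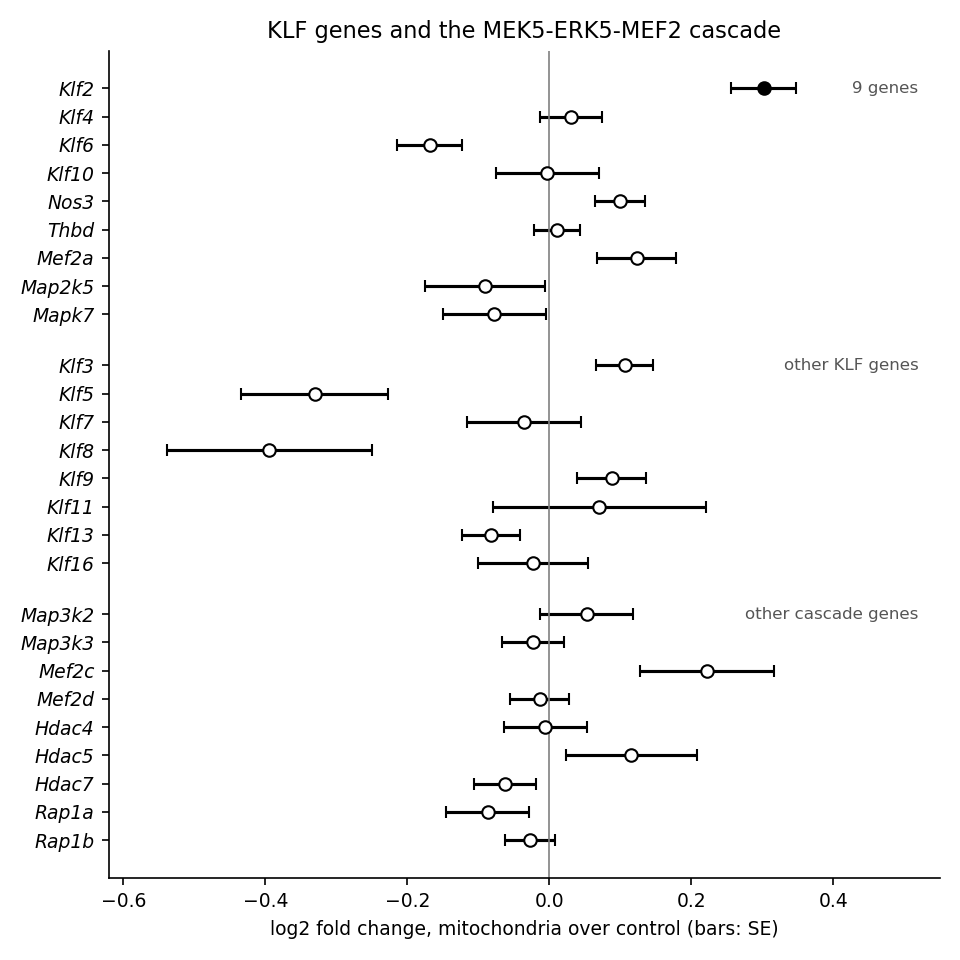
Log2 fold change, mitochondria over control, of the 9 genes, the other tested KLF genes and the other tested genes of the cascade; bars are SE and the filled point has an adjusted p under 0.05 in edgeR. Klf2 at 0.30 is the filled point; Klf5 at −0.33 and Klf8 at −0.39 have larger changes with wider errors.

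In the rest of the KLF family no gene passed the main edgeR test. DESeq2 called 3 genes of the family, Klf2, Klf6 and a gene outside the 9. Of 17 listed KLF genes 15 had a row and 12 were tested, of which Klf2 rose, 11 did not pass and none fell. Of the 12, 5 lay above 0 and the median was −0.01. Over all tested genes 2.09% were called and the median was 0.0011. Klf5, named after its value was seen and known in vessels from remodelling smooth muscle, was at −0.33 (SE 0.10, adjusted p = 0.144 by edgeR), from 18.2 to 14.5 CPM. Klf8 was at −0.39 (SE 0.14, adjusted p = 0.207 by edgeR), from 8.98 to 6.83 CPM. The abundant Klf3, a repressor, was at 0.11 (SE 0.04), Klf13 at −0.08 (SE 0.04) and Klf9 at 0.09 (SE 0.05). In these 3, and in Klf5 and Klf8, the groups did not overlap. That is most of the 8 tested KLF genes outside the 9, beside 21.1% of all tested genes. The lists were chosen with earlier results of these data known, so nothing is read from the difference. Klf7, Klf11 and Klf16 had overlapping groups. Klf1, Klf12 and Klf15 were below the filter, with at most 22 counts in a library.

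Nos3 (ENSMUSG00000028978, chromosome 5: 24364810 to 24384474 on the plus strand, 26 exons) encodes the enzyme that makes nitric oxide in endothelium. It stood at 956, 927 and 937 CPM in controls 1, 2 and 3 and at 1009, 961 and 1053 CPM in mitochondria 1, 2 and 3. Each mitochondria library lay above each control, though mitochondria 2 exceeded control 1 only slightly. The mean was 940.2 ± 14.6 CPM in control and 1008 ± 46.0 CPM with mitochondria (SD, n = 3; log2 change 0.10, SE 0.04, 95% interval 0.02 to 0.18, adjusted p = 0.191 by edgeR). It did not pass in any setting run. On TPM it was −0.06, which is 0.09 above the median of all genes there. The antisense gene Gm15587, which overlaps 17423 bases of the Nos3 locus, had 91 to 225 counts and Atg9b, which overlaps its end, 205 to 417, against 55068 to 63796 for Nos3.

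Around Nos3, 14 of 22 listed genes of nitric oxide synthesis and breakdown were tested. Hsp90ab1, a chaperone that binds the synthase, fell from 3228 ± 58.0 CPM (log2 change −0.12, SE 0.03, adjusted p = 0.0385 by edgeR). None rose, and the list median was −0.07 beside 0.0011 for all tested genes, of which 2.09% were called. The call of Hsp90ab1 was lost in each of the 6 fits without a library, at adjusted p = 0.0525 to 0.179 by edgeR. Over the whole list 5 genes were called by DESeq2 and with library totals, and 4 on TPM and with a replicate block. Limma on FPKM called 0, as did edgeR without a filter and with the covariate. In the main test Ddah1, which breaks down an inhibitor of the synthase, did not pass at −0.23 (SE 0.06, adjusted p = 0.0664 by edgeR). Nor did Gch1, which makes the cofactor of the synthase, at 0.17 (SE 0.05). Cav1, which encodes caveolin that holds the synthase inactive, did not pass there either, at −0.11 (SE 0.03). These 3 were named after their values were seen. Nos1 and Nos2, the other synthases, were below the filter, and Gucy1b1, a chain of the nitric oxide receptor, was at 0 in all libraries.

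Thbd (ENSMUSG00000074743, chromosome 2: 148404466 to 148408188 on the minus strand, 1 exon) encodes thrombomodulin, which turns thrombin into an activator of protein C. It stood at 992, 1025 and 1012 CPM in control and at 975, 1048 and 1027 CPM with mitochondria. The treated libraries spanned the whole control range. The mean was 1009 ± 16.5 and 1017 ± 37.5 CPM (SD, n = 3; log2 change 0.01, SE 0.03, adjusted p = 0.917 by edgeR). The 95% interval ran from −0.06 to 0.08, and with library totals, FPKM or TPM scaling the value was negative but within 0.01 of the median of all genes.

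Procr, the endothelial receptor that presents protein C to thrombomodulin, fell from 1206 ± 23.2 to 1082 CPM (log2 change −0.16, SE 0.03, adjusted p = 0.0180 by edgeR). Without a library it was called only when mitochondria 2 was left out, and the fits without any of the other 5 libraries gave adjusted p = 0.0515 to 0.0854 by edgeR. It was the only called gene among the 11 tested of 18 listed genes of thrombomodulin, protein C and coagulation, whose median was 0.01. Over all tested genes 2.09% were called and the median was 0.0011. The tissue factor gene F3 was below the filter.

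Genes listed as raised by laminar flow or by KLF2 and KLF4 went both ways. Of 22 listed 16 were tested, of which Nqo1 rose, Hmox1 and S1pr1 fell and 13 did not pass, Nos3 and Thbd among them. Over all tested genes 2.09% were called. The median was 0.04. Nqo1 encodes a quinone reductase and stood at 179 ± 8.69 CPM in control and 289 CPM with mitochondria, a rise of 0.69 on the log2 scale (SE 0.05). It and Hmox1, a heme-degrading enzyme at −0.18 (SE 0.03), are also targets of NRF2. S1pr1, a sphingosine 1-phosphate receptor that KLF2 raises and that also senses flow, fell from 416 ± 2.82 to 372 CPM (log2 change −0.16, SE 0.03, adjusted p = 0.0285 by edgeR). Left-out libraries ended the call of S1pr1 in 5 of 6 fits, all but that without mitochondria 2 (adjusted p = 0.0819 to 0.134 by edgeR), and that of Hmox1 without mitochondria 3 (adjusted p = 0.0539 by edgeR).

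Of 18 genes listed as lowered by laminar flow or by KLF2 and KLF4, 15 were tested, of which 6 fell, 2 rose and 7 did not pass, with 4 above 0 and a median of −0.07. Over all genes 1.10% fell and 0.986% rose. The lists were chosen with earlier results of these data known, so nothing is read from such differences. Edn1, the vasoconstrictor endothelin 1, fell from 179 ± 4.67 to 145 CPM (log2 change −0.31, SE 0.04, adjusted p = 0.00217 by edgeR) and was called in all 6 fits without a library. Thbs1, thrombospondin 1, at −0.44 (SE 0.02), and the matricellular genes Ccn1 at −0.41 (SE 0.03) and Ccn2 at −0.33 (SE 0.03) fell and were likewise called in all 6; these 3 are also known as genes of the matrix and of YAP/TAZ signalling. Bmp4, a growth factor raised by disturbed flow, fell by 0.30 on the log2 scale (SE 0.06, adjusted p = 0.0190 by edgeR; not called without control 1, control 3 or mitochondria 3, at adjusted p = 0.0648 to 0.101).

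Against that direction, Txnip, the inhibitor of thioredoxin that flow lowers, rose from 83.4 ± 7.60 to 106 CPM (log2 change 0.34, SE 0.06, adjusted p = 0.0168 by edgeR; not called without control 2, control 3 or mitochondria 3, at adjusted p = 0.0707 to 0.0862). Selp, the adhesion molecule P-selectin, rose by 0.24 (SE 0.05; called only without control 1 or mitochondria 1). With the direction of the list, Cxcl12, a chemokine, fell by 0.14 on the log2 scale (SE 0.03; called only without control 1). Selp and Cxcl12 are outside the naming rule and were chosen after their values were seen. Without the other libraries Selp had adjusted p = 0.066 to 0.1404 and Cxcl12 0.0701 to 0.187 in edgeR. The inflammatory genes Vcam1 at 0.15 (SE 0.07), Sele at −0.04 (SE 0.13) and Ccl2 at 0.18 (SE 0.05) did not pass, nor did Angpt2 at −0.03 (SE 0.08), which KLF2 is known to lower. With the share of CT010467 and Lars2 as a covariate, Thbs1 alone of the called genes of the pathway lists was still called. That fit called 3 genes over all tested genes. It can barely separate the share from the treatment, since the share did not overlap between the groups, so nothing is read from the lost calls.

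**Figure D5:**
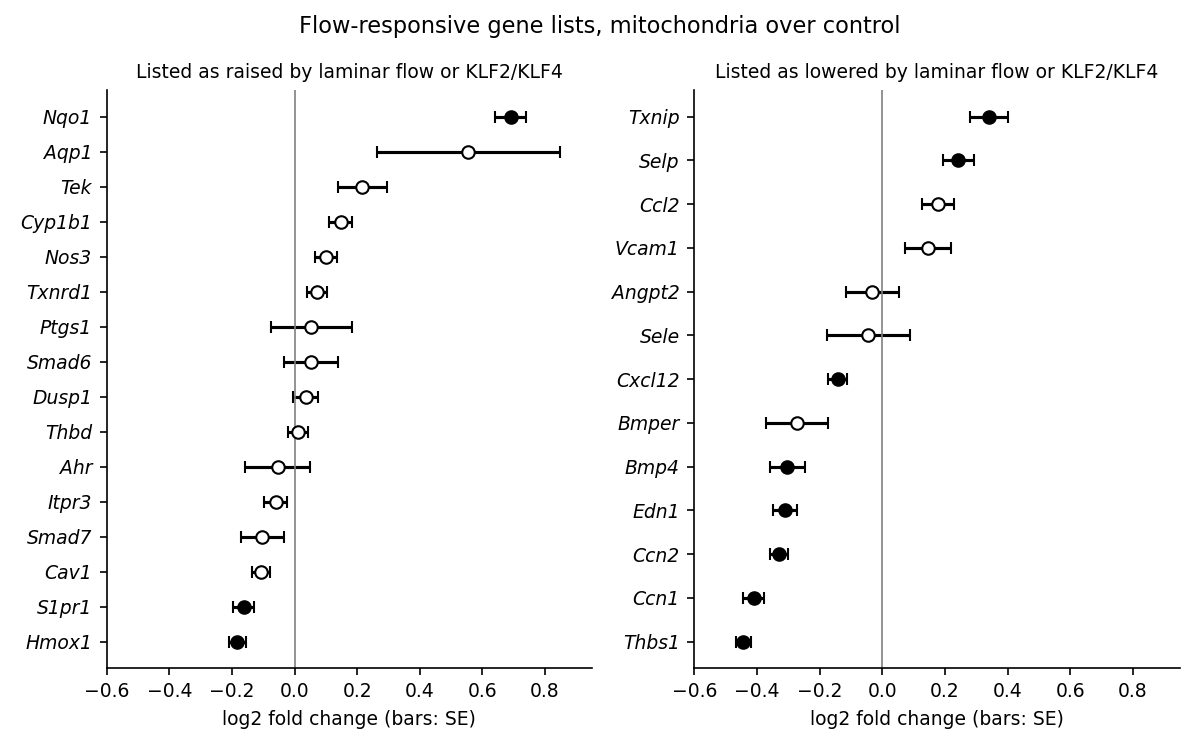
Log2 fold change, mitochondria over control, of the tested genes listed as raised (left, 16 genes) and as lowered (right, 13 of the 15 genes) by laminar flow or KLF2 and KLF4; bars are SE and filled points have an adjusted p under 0.05 in edgeR. On the left 1 filled point is above 0 and 2 below, on the right 2 above and 6 below.

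Over all tested genes 2.09% were called in the main test, 0.986% upward and 1.10% downward, and the median was 0.0011. The counts in the lists that follow stand beside these shares. Of 18 listed flow sensors 16 were tested, S1pr1 fell and 15 did not pass, with a median of 0.03. Piezo1, the mechanically gated channel, was at −0.02 (SE 0.04), the junctional sensors Pecam1 at 0.07 (SE 0.03) and Cdh5 at 0.0033 (SE 0.03), and Kdr, the VEGF receptor of that complex, at 0.04 (SE 0.03). Trpv4 and Piezo2 were below the filter. Of 17 tested genes of transforming growth factor beta signalling to which KLF6 and KLF10 are tied, Tgfb2 fell (log2 change −0.58, SE 0.07, adjusted p = 0.00217 by edgeR, 43.1 ± 2.84 to 28.8 CPM, called in all 6 fits without a library) and 16 did not pass, with a median of 0.0032. Eng, the coreceptor endoglin that KLF6 is known to raise, was at 0.0063 (SE 0.04), and Smad7, which KLF10 is known to repress, at −0.10 (SE 0.07). Of 17 tested endothelial markers, the transcription factor gene Sox18 rose by 0.50 (SE 0.09, adjusted p = 0.0176 by edgeR; not called without control 2, control 3 or mitochondria 1, at adjusted p = 0.0547 to 0.0761) and 16 did not pass. The endothelial markers had a median of 0.07 beside 0.0011 for all tested genes, with 14 of 17 above 0. DESeq2 called 4 of them, edgeR called 3 with the mean FPKM filter and 3 with CT010467 and Lars2 removed, and limma called 0. The part of this in the Klf2 result was not tested.

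By the database terms of the deposited table, looked up after the values were seen, 6 of the 9 genes carried the KEGG term for fluid shear stress and atherosclerosis, namely Klf2, Nos3, Thbd, Mef2a, Map2k5 and Mapk7. In all 126 genes carried it and 94 were tested, of which 9 rose and 5 fell, with a median of 0.01; over all tested genes 0.986% rose and 1.10% fell. Since the term was looked up late, nothing is read from the difference. The genes that rose included Klf2, Nqo1, Sqstm1 and the glutathione transferases Gsta1, Gstp1 and Mgst1, and those that fell included Edn1, Bmp4, Hmox1 and Hsp90ab1. Nos3 and Thbd did not pass.

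The genes whose pattern over the 6 libraries was nearest to Klf2 were Bcl9, a coactivator of Wnt signalling, Ndrg3 and Rflnb, an actin-binding refilin. Likeness was the root mean square difference of log2 CPM after centring each gene, which was 0.0223 for Bcl9, 0.0326 for Ndrg3 and 0.0361 for Rflnb, against a median of 0.186 over all tested genes. Their log2 fold changes, 0.29, 0.26 and 0.35, follow from this choice and are no further result. Nearest to Klf4 were Arhgap12 at 0.0135, Tmem183a at 0.0144 and Cox19 at 0.0145, against a median of 0.102.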

How the data were processed

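Counts and FPKM values per gene and sample were deposited by the authors in 1 table; per the file headers the columns are named count and FPKM. Counts are whole numbers, and FPKM, the authors' deposited values, are fragments scaled to transcript length and library size. The build was GRCm38 and the tools, per the submitters' processing notes, included edgeR, DESeq2, StringTie 2.1.6, HISAT2 2.2.1 and cutadapt 1.9. What each did, and whether strand entered the counting, is not stated there, although per the labels' protocols the kit was stranded.

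Groups followed the treatment label. The filter kept genes reaching 1 FPKM in 3 or more libraries. These were compared in R 4.3.3 by the quasi-likelihood test of edgeR 4.0.16 (TMM factors, group as the only term, two-sided, Benjamini-Hochberg over all 11255 genes), calling an adjusted p under 0.05. SE was the size of the log2 change divided by the root of the F statistic; CPM are TMM-scaled. On simulated counts of 11255 genes for this comparison, the test found 26% of genes changed by 1.2-fold, 62% of those changed by 1.5-fold, and 7.33% of calls were wrong. DESeq2 1.42.0 and limma 3.58.1 (on log2 FPKM, and on TPM rescaled from the deposited FPKM) were alternatives, as were other scalings and filters, a replicate block, a covariate and leaving out each library.

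The 9 genes and the lists were chosen with earlier results of these data known. Lists came from general knowledge, and the place of Cxcl12 is less certain. Counts and medians cover whole lists, but some list members are not reported here by name. Named are the 9 genes, up to 6 called genes of each list by lowest p, the 3 nearest in pattern to Klf2 and to Klf4, and others marked as chosen after their values were seen or given as context.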

Additional observations from a re-analysis of the deposited data

How the results depend on the processing

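The number of the 9 genes called was 1 in edgeR and in each fit without a library, 2 in DESeq2 and with library totals only, 3 with the replicate block, and 0 in limma on FPKM with a pseudocount of 1, 0.5 or 0.1, without a filter, and with the share of CT010467 and Lars2 as a covariate. Over all genes the count was 235 in edgeR, 597 in DESeq2, 353 with library totals, 39, 39 and 36 in limma with pseudocounts of 1, 0.5 and 0.1, 22 without a filter, 394 with the block, 3 with the covariate, and 68 to 233 without a library. The pathway lists held 16 called genes in edgeR, 26 in DESeq2, 8 in limma with each pseudocount, 7 without a filter, 1 with the covariate and 8 to 15 without a library. Genes that rose were 47.2% of calls in edgeR, 17.3% with library totals, 17.9% in limma on FPKM, 6.1% on TPM, 27.3% without a filter and 33.3% with the covariate.

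Klf2 was above 0 in all 18 other settings. It missed the threshold in limma on FPKM (0.24 with each pseudocount), on TPM (0.14), without a filter (0.30) and with the covariate (0.18), and it ranged from 0.26 to 0.34 without a library. Signs turned for Klf4 with library totals (−0.018), FPKM (−0.030, −0.031 and −0.031 with pseudocounts of 1, 0.5 and 0.1), TPM (−0.13) and the covariate (−0.077), and for Thbd with library totals (−0.038), FPKM (−0.051 with each pseudocount), TPM (−0.15) and the covariate (−0.019). Without a library Thbd ranged from −0.012 to 0.040 and Klf10 from −0.10 to 0.060, and Klf10 was 2.9e-05 without a filter. Nos3 (−0.059) and Mef2a (−0.036) turned on TPM and Map2k5 (0.065) with the covariate. Library totals, FPKM and TPM move the median of all genes to −0.05, −0.05 and −0.15. Relative to it Klf4, Nos3 and Mef2a had the sign of the main value in each of these, which follows from the main scaling already holding that median near 0. Thbd lay 2.6e-05 to 0.0084 above that median, too near it for a sign to be read. For the covariate and the left-out libraries the cause was not tested.

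Same-numbered libraries deviated together only weakly (correlations of 0.07, 0.09 and 0.06). Controls 1 and 2 correlated best with their own number, by small margins (0.073 against 0.067, and 0.090 against 0.089). Control 3 correlated best with mitochondria 1 (0.12), and the numbers were not taken as pairs. Among the 9 genes, CPM of Klf6, Klf10, Thbd and Mef2a rose in the library order 1, 3, 2 in both groups, and Mapk7 in the order 2, 3, 1. For Klf2, Klf4, Nos3 and Map2k5 the order differed between the groups. With the replicate block Klf6 (−0.17, adjusted p = 0.0112) and Mef2a (0.12, adjusted p = 0.0464) were called beside Klf2 in edgeR. The block lowered the SE of Klf6 (0.05 to 0.03) and Mef2a (0.06 to 0.03) and raised that of Map2k5 (0.08 to 0.09). Each of the 9 genes had 1689 or more counts in every library.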
